A study of Homo sapiens with 6 samples.

Results

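The genes described here are 10 immediate-early and AP-1 genes, namely FOS, FOSB, FOSL1, FOSL2, JUN, JUNB, JUND, EGR1, IER2 and IER3. They were picked by official symbol from the 19240 genes of the count table, and all 10 were present and had enough counts to be tested, among 11886 tested genes. The cells were A549, an established human line from a lung carcinoma, grown for 48 h with glucose at 25 mM or with none, and each group had 3 libraries, called glucose 1 to 3 and no-glucose 1 to 3. Transcripts were counted at their 3' ends, and levels are given as CPM, counts scaled to a common library size by edgeR. Whether replicate libraries stem from separate cultures is not stated, so each p-value reflects the spread among these libraries alone, and that spread may be technical.

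AP-1 is a dimer of basic leucine zipper proteins, in which a FOS protein pairs with a JUN protein, or JUN proteins pair with each other, to bind DNA at AP-1 sites. EGR1 is a zinc-finger factor that binds GC-rich sites. Genes of this kind are called immediate-early because growth factors and stress, acting through MAP kinases and factors already present in the cell, induce many of them within minutes and without new protein. FOS, FOSB and EGR1 transcripts are usually short lived, whereas FOSL1, FOSL2 and JUND are often held at steady levels in growing tumor cells.

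After 48 h without glucose, FOS, FOSL1, JUN and EGR1 rose and FOSL2 fell, while FOSB, JUNB, JUND, IER2 and IER3 did not pass the test. EGR1 went from 2.07 ± 1.08 to 7.82 ± 1.48 CPM and JUN from 180 ± 1.91 to 465 ± 183 CPM (mean ± SD, n = 3 libraries per group). In edgeR's quasi-likelihood test, with p-values adjusted by the Benjamini-Hochberg method, 4 of 10 members were higher and 1 was lower, where 11.6% of all tested genes were higher and 10.7% lower. The CPM of the groups did not overlap for 6 members, 4 with every library without glucose above and 2 with every library below, against 40.4% of all tested genes in either direction. The median log2 fold change was 0.70 over the members and 0.02 over all tested genes. JUN and EGR1 passed under each of the 12 alternative settings tried, FOSL1 under 10, FOS under 8 and FOSL2 under 5.

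**Figure D1:**
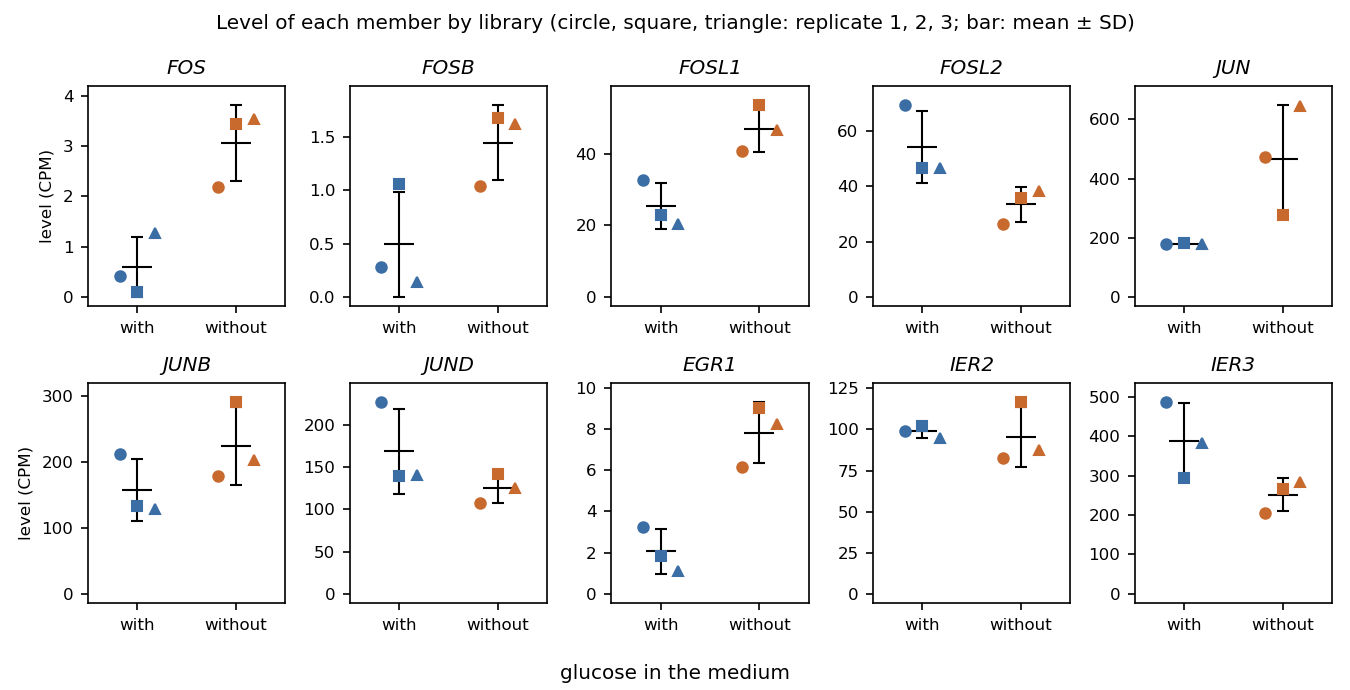
Level of each member in CPM (vertical axis, a scale for each gene) in the libraries with and without glucose. Points are libraries and bars are mean ± SD; JUN sits between 178 and 181 CPM with glucose and between 278 and 645 CPM without it.

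The 6 libraries held 6701004 to 14259943 gene counts, the fewest in glucose 1, so that a single count was worth 0.0704 to 0.141 CPM. Glucose 1 also stood apart on the second principal component (score 31.7, against −18.7 and −17.7 for the other libraries with glucose). All 12 listed markers of A549 and epithelial cells were tested; their summed level was 14153 to 15939 CPM with glucose and 9431 to 10148 CPM without it, and 6 of them fell. Of the markers of alveolar type II cells, the cell type A549 is often used to model, SFTPA1, SFTPA2 and SFTPC were at 0 counts in every library. The summed level of the 8 listed type II markers was nevertheless 15.3 to 16.0 CPM with glucose and 27.2 to 32.5 CPM without it. ABCA3 and LAMP3, the 2 that were tested, together held most of this sum. The mean was 14.7 CPM with glucose and 22.1 CPM without it for ABCA3, and 0.0235 and 7.27 CPM for LAMP3. LAMP3 rose, from 1 count in all to 269 (adjusted p = 3.10e-05). ABCA3 did not pass (log2 fold change 0.58 ± 0.20, adjusted p = 0.0581), with every library without glucose above. Leukocyte markers summed to 1.15 to 1.83 CPM with glucose and 0.0765 to 0.285 CPM without it, with CD3E and CSF1R at 0 counts. CD14, the 1 tested, held most of the sum with glucose (mean 1.13 CPM) and fell from 36 counts in all to 3 (adjusted p = 0.0116). Fibroblast markers summed to 13.0 to 15.0 CPM with glucose and 4.52 to 5.97 CPM without it, with COL1A2 and DCN at 0. COL1A1, the 1 tested, held most of this sum (mean 12.6 CPM with glucose and 4.87 CPM without it). It fell by 1.37 ± 0.25 on the log2 scale. Endothelial markers, of which none was tested, summed to 0.281 to 0.848 CPM with glucose and 0.190 to 0.306 CPM without it, with VWF and KDR at 0. The part of such cells in the levels of the immediate-early genes was not tested. In bulk RNA, fewer cells with a transcript and less transcript per cell cannot be told apart.

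The 250 bases before the annotated start of 4 of the genes that changed are shown because immediate-early genes are known to be induced through elements close to their start. They are from RefSeq, build GRCh38.p14, and lie at chr5:138465229-138465478 on the + strand (EGR1), chr14:75278578-75278827 on the + strand (FOS), chr1:58784048-58784297 on the - strand (JUN) and chr2:28392608-28392857 on the + strand (FOSL2). The counts were made on hg19, so these coordinates do not apply to the deposited files. Capitals mark CArG boxes (the core of the serum response element), the core of the cyclic AMP response element (TGACGT), its variant TGACNTCA, the AP-1 site TGACTCA, all sought on both strands, and TATAA on the sense strand.
EGR1: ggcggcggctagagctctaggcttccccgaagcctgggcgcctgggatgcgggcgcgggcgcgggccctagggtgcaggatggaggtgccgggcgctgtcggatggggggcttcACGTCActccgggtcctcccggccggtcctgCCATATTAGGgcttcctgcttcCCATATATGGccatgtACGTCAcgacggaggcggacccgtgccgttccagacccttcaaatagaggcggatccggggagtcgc
FOS: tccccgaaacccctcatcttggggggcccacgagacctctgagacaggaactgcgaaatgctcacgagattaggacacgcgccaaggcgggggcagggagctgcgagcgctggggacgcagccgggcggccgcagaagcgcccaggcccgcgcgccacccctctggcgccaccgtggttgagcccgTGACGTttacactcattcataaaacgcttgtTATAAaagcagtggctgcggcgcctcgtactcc
JUN: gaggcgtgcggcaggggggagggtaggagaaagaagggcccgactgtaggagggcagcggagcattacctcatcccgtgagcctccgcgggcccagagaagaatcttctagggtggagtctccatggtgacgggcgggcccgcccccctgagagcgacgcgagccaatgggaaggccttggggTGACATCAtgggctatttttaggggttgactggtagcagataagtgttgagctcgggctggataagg
FOSL2: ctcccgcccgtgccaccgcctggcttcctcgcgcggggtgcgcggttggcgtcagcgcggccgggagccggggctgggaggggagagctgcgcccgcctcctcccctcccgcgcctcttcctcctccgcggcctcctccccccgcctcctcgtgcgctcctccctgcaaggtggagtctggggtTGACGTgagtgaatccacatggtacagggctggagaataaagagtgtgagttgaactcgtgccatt

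EGR1 held 2 CArG boxes, CCATATTAGG and CCATATATGG, which began 105 and 83 bases before the start, and no other member with a listed sequence held one in this window; 1.16% of the 35116 windows of equal length did. The 35116 windows were not limited to the 11886 genes tested here, so their shares are not those of expressed genes alone. The core TGACGT stood in 5 of the 8 members with a sequence and in 7.1% of all windows. It began 64 bases before the start in FOS, which rose, and 66 bases before it in FOSL2, which fell. FOSB and JUND held it too, and EGR1 held it in reverse at 136 and 67 bases. JUN instead held TGACATCA, a match to TGACNTCA, at 67 bases; 2 of the 8 members and 6.87% of all windows matched this form, which overlaps the core in JUND. No member matched TGACTCA, found in 4.2% of windows. These matches describe letters in a short window and not bound sites. Bases farther before the start were not searched, so a CArG box or other element there would be missed. FOSL1 and IER3 had no listed sequence.

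Of the FOS family, FOS and FOSL1 rose, FOSL2 fell and FOSB did not pass. FOS, the founding member and a factor of growth-factor and stress responses, had levels of 0.424, 0.0961 and 1.27 CPM in replicates 1, 2 and 3 with glucose and of 2.18, 3.44 and 3.54 CPM without it. These rest on few reads, 22 counts over the libraries with glucose and 116 over those without, a ratio of 4.49 relative to the scaled library totals (exact 95% interval 2.83 to 7.45, for counting error only). The groups did not overlap, and glucose 3 was the closest to the libraries without glucose. The log2 fold change, 2.23 ± 0.65 (SE), passed with an adjusted p of 0.0274. The call was lost on leaving out glucose 1 or glucose 2 (adjusted p = 0.0616 and 0.0740), no-glucose 2 or no-glucose 3 (0.0707 and 0.0899), and the log2 fold change was 3.64 on leaving out glucose 3.

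FOSB, a close relative of FOS, was as scarce, with 0.283, 1.06 and 0.141 CPM with glucose and 1.04, 1.68 and 1.62 CPM without it. Glucose 2 lay just above the lowest library without glucose, so the groups overlapped. Its log2 fold change of 1.56 ± 0.72 did not pass (adjusted p = 0.136); leaving out glucose 2 gave 2.85, which passed (0.0477), and leaving out glucose 3 gave 1.03 (0.371).

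FOSL1, which encodes FRA1, a FOS protein linked to invasion in epithelial tumors, had levels of 32.6, 23.0 and 20.4 CPM with glucose and of 40.8, 53.6 and 46.7 CPM without it. Each library without glucose lay above each with it. FOSL1 rose by 0.90 ± 0.23 on the log2 scale, 1.87-fold (adjusted p = 0.0135). The call was lost on leaving out glucose 2 or glucose 3 (adjusted p = 0.0642 and 0.0697).

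FOSL2, which encodes FRA2, went the other way. Its levels were 69.4, 46.6 and 46.8 CPM with glucose and 26.5, 35.7 and 38.3 CPM without it, again with no overlap. The log2 fold change was −0.69 ± 0.23, and the adjusted p of 0.0492 lay at the threshold. Each of the 6 fits that left out 1 library lost the call (adjusted p between 0.0666 and 0.152), as did a replicate block (0.106); leaving out glucose 1, its highest library, gave −0.48.

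In the JUN family, JUN rose and neither JUNB nor JUND passed. JUN, whose protein can form AP-1 alone or with a FOS protein and is activated by JNK, had levels of 178, 181 and 180 CPM with glucose. Without glucose it had 472, 278 and 645 CPM in replicates 1, 2 and 3. The libraries with glucose were close to identical, and those without glucose were spread over a range wider than the difference between the group means. The log2 fold change was 1.37 ± 0.27 (adjusted p = 0.00396), with values from 1.05 to 1.62 when 1 library was left out.

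JUNB, which often opposes JUN in growth control, had levels of 213, 133 and 129 CPM with glucose and 179, 291 and 203 CPM without it. Glucose 1 lay above 2 of the libraries without glucose. The log2 fold change was 0.50 ± 0.26 (adjusted p = 0.178); it was 0.77 without that library and then passed (0.0451), and 0.26 on leaving out no-glucose 2. The span of JUNB overlaps that of HOOK2, and the strand setting of the counting is not given; HOOK2 had at most 55 counts in any library, where JUNB had at least 1388.

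JUND, the JUN protein that is often present at steady levels, had 227, 139 and 140 CPM with glucose and 107, 142 and 125 CPM without it. The groups overlapped through no-glucose 2. Its log2 fold change of −0.44 ± 0.24 did not pass (adjusted p = 0.204), and was −0.17 on leaving out glucose 1.

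EGR1, the zinc-finger factor of the set, had levels of 3.25, 1.83 and 1.13 CPM with glucose and 6.16, 9.03 and 8.25 CPM without it. The lowest library without glucose was above the highest with glucose. Over the groups there were 58 and 295 counts, a ratio of 4.34 relative to the scaled library totals (exact 95% interval 3.26 to 5.85). The log2 fold change was 1.99 ± 0.39 with an adjusted p of 0.00399, and stayed between 1.65 and 2.42 when 1 library was left out (adjusted p at most 0.0199).

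Neither of the IER genes, which share the name immediate early response but not a protein family, passed. IER2, a nuclear protein induced by growth factors, had 99.1, 102 and 94.9 CPM with glucose and 82.7, 117 and 87.4 CPM without it. The groups overlapped, and the log2 fold change was −0.05 ± 0.20 (adjusted p = 0.890). IER3, a stress-inducible gene tied to survival and NF-kB signaling, had 487, 295 and 382 CPM with glucose and 205, 266 and 284 CPM without it. Every library without glucose lay below every library with it, but the log2 fold change of −0.62 ± 0.23 did not pass (adjusted p = 0.0706). DESeq2 gave IER3 an adjusted p of 0.0350.

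**Figure D2:**
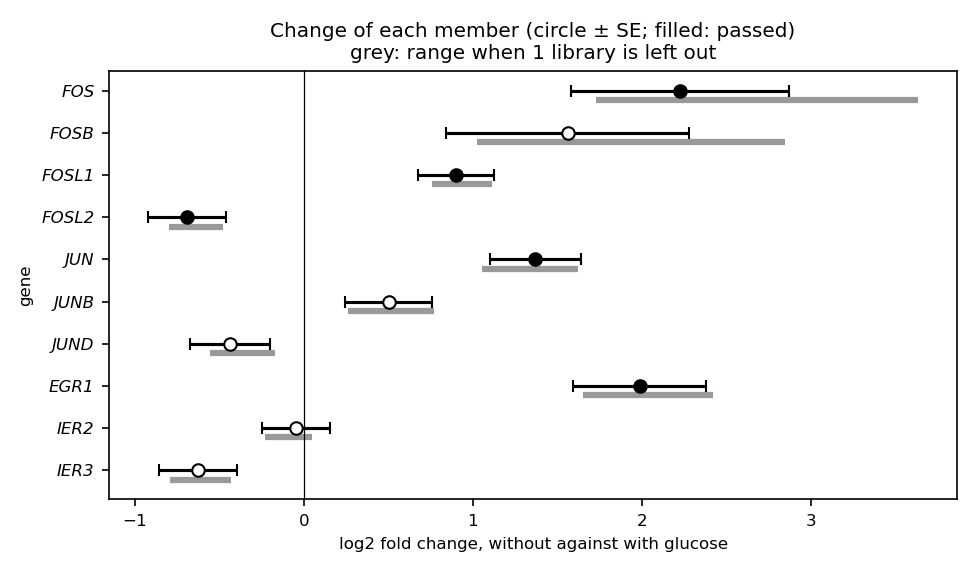
Log2 fold change of each member without against with glucose (horizontal axis), as circles with SE, filled where the edgeR test passed, and the range when 1 library is left out in grey. FOS and FOSB have the widest ranges, FOS from 1.73 to 3.64, and only the range of IER2 crosses 0.

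Within the FOS family, FOSL2 had the most counts in each library with glucose and FOSL1 in each library without it. Counts at 3' ends were taken without scaling by length, so a share compares libraries and not the absolute amounts of different genes. FOSL1 made up 31.8%, 32.5% and 29.7% of the counts of the family with glucose and 57.9%, 56.8% and 51.8% without it. FOSL2 made up 67.5%, 65.9% and 68.2% with glucose and 37.5%, 37.8% and 42.5% without it. The highest upper bound for FOSL1 with glucose was 36.0% and the lowest lower bound without it 49.0% (exact Clopper-Pearson 95% intervals, for counting error only). The mean share without glucose minus that with it was 24.2 percentage points for FOSL1 and −27.9 for FOSL2. FOS itself held 3.1% to 3.92% of the family without glucose, against 0.136% to 1.85% with it. Summed over its 4 genes, the family had a level of 80.7 ± 19.1 CPM with glucose and 85.0 ± 12.8 CPM without it (SD, n = 3 libraries per group).

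In the JUN family the share of JUND was lower in every library without glucose, 14.1%, 19.9% and 12.8% against 36.7%, 30.7% and 31.1%. The shares of JUN overlapped between groups. They were 28.8%, 39.9% and 40.1% with glucose and 62.2%, 39.1% and 66.3% without it, where no-glucose 2 had the share of JUN seen with glucose and the highest share of JUNB, 41.0%. The summed level of this family was 507 ± 95.5 CPM with glucose and 814 ± 139 CPM without it. In the exact permutation test over libraries (two-sided), 4 of the 7 shares, those of FOS, FOSL1, FOSL2 and JUND, gave p = 0.10, the smallest that 3 against 3 libraries allow. Adjusted over the 7 shares these were 0.175. For FOSB, JUN and JUNB the exact p was 0.20, 0.30 and 0.80.

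**Figure D3:**
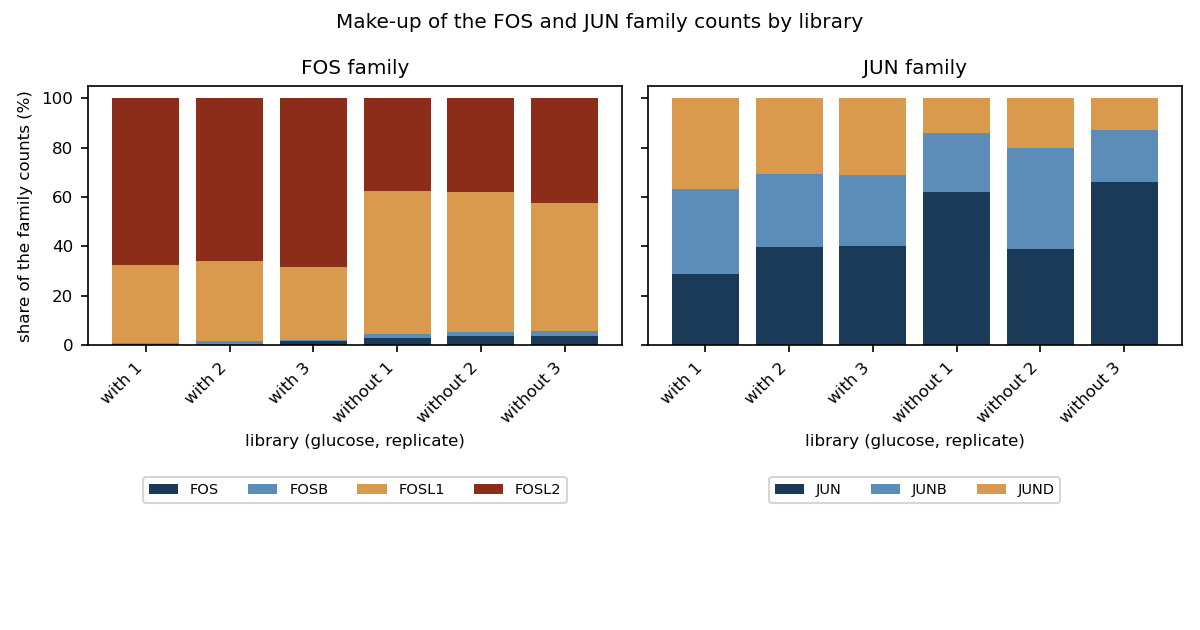
Share of each gene in the counts of the FOS family (left) and the JUN family (right), in percent, for each library. FOSL1 takes 29.7% to 32.5% of the FOS family with glucose and 51.8% to 57.9% without it.

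The members also differed between libraries of the same group. The SD within groups of log2(CPM + 1) had a median of 0.34 over the members and 0.28 over all tested genes. It was 0.43 for JUN and for FOS, the highest, and lowest for IER2 at 0.19. The order of the highest depends on the constant added. With 0.5 in place of 1, the SD was 0.60 for FOS, 0.51 for FOSB, 0.47 for EGR1 and 0.43 for JUN. On the scale with 1 added, the spread of JUN was nearly all among the libraries without glucose, with an SD of 0.61 there and 0.015 with glucose. Glucose 1, the shallowest library, was the highest of its group for 6 of 10 members, FOSL1, FOSL2, JUNB, JUND, EGR1 and IER3, by 0.36 to 0.53 above the group mean on this scale. No-glucose 1 was the lowest of its group for 9 of 10 members, JUN being the exception, and no-glucose 2 was the highest for 6. No-glucose 2 had the lowest JUN of its group (−0.66) and the highest JUNB (0.41). On the second principal component of all tested genes, glucose 1 and no-glucose 2 likewise had the highest scores of their groups. No-glucose 1 had the lowest score of its group. How many of all tested genes had these orders of libraries was not counted, so the orders may not be particular to the members. The part of depth or handling in the differences between libraries was not tested.

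**Figure D4:**
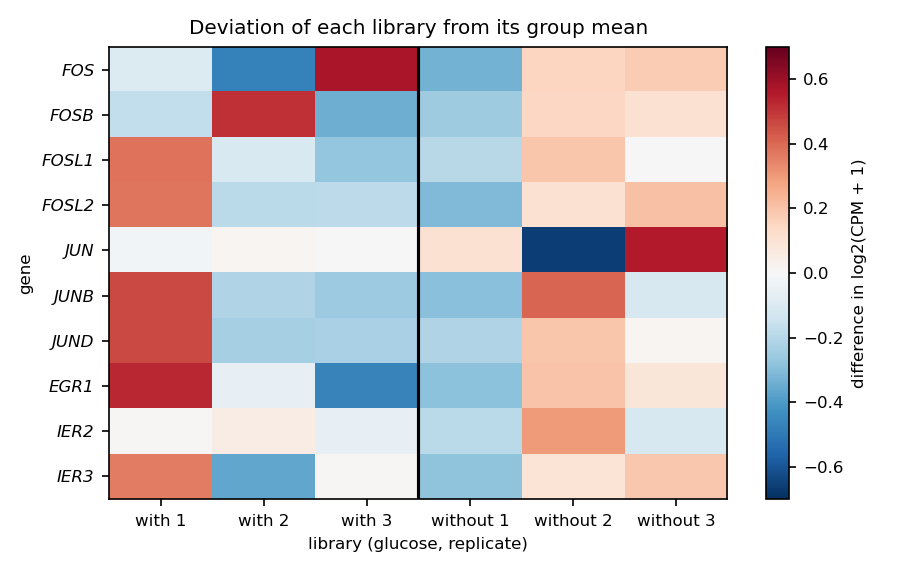
Difference of each library from the mean of its own group in log2(CPM + 1) (color scale), for the members (rows) in the 6 libraries (columns). Glucose 1 is above its group mean for 7 members, and no-glucose 1 is below for 9 of 10.

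Genes with the profile most like JUN, FOSL1 and EGR1 were taken as the 3 with the highest Pearson correlation of log2(CPM + 1) over the 6 libraries, among the 11152 tested genes that averaged 20 counts or more. For JUN they were CASZ1, ZNF664 and ZNF559 (r = 0.997, 0.996 and 0.996). CASZ1 had 4.95, 5.19 and 5.14 CPM with glucose and 9.39, 7.04 and 12.4 CPM without it, with no-glucose 2 the lowest there, as for JUN. For FOSL1 they were MAX, LAMA5 and HM13 (r = 0.999, 0.998 and 0.996), and for EGR1 TNFRSF10B, TP53I3 and IL1RL1 (r = 0.9985, 0.998 and 0.994). TNFRSF10B, a death receptor gene, had 56.4, 39.8 and 31.5 CPM with glucose and 80.7, 100 and 94.0 CPM without it. With 6 libraries in 2 groups a high r is common: 127 genes were above 0.95 for JUN, 239 for FOSL1 and 276 for EGR1.

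The other genes of the pathway were taken from 8 lists. Beside each count stand the 11.6% of all tested genes that were higher and the 10.7% that were lower, and the median log2 fold change of 0.02 over all of them. Where a list gene is given below without being among the 3 of its list with the smallest p, it was chosen after its values were seen.

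Among proteins that can pair with FOS or JUN, 2 of 11 tested genes rose and none fell by the edgeR test (median log2 fold change 0.29; at an unadjusted p under 0.05, 3 higher and 0 lower; DESeq2, 2 and 0). MAF, of the large MAF proteins, had 1.41, 2.69 and 1.69 CPM with glucose and 5.78, 5.82 and 7.37 CPM without it, a log2 fold change of 1.69 ± 0.36. CREB5 rose with a log2 fold change of 1.54 ± 0.50, a call lost with a replicate block and on leaving out glucose 2, glucose 3, no-glucose 2 or no-glucose 3. ATF2, which pairs with JUN at cyclic AMP response elements, had 0.67 ± 0.31 and did not pass. ATF3, a stress-induced partner of JUN, had −0.12 ± 0.26.

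EGR2, EGR3 and EGR4 had at most 5 counts in any library, and were not tested. NAB1 and NAB2, corepressors that bind EGR proteins, had log2 fold changes of −0.12 ± 0.27 and −0.14 ± 0.22. Neither passed the edgeR test, at an unadjusted p under 0.05 the count was 0, and DESeq2 called 0.

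Of 27 other immediate-early genes tested, 5 rose and 3 fell (median 0.19). KLF2, a zinc-finger factor of shear stress and quiescence, rose from 2.83, 1.92 and 1.20 CPM to 13.4, 13.6 and 13.3 CPM, a log2 fold change of 2.82 ± 0.33. RHOB, TRIB1, PPP1R15A and CSRNP1 rose with log2 fold changes of 0.76, 0.63, 0.71 and 0.78, each lost on leaving out at least 5 of the 6 libraries in turn; the number higher was then 1 to 3, and it was 1 with a replicate block. NR4A1 and NR4A3, orphan nuclear receptors that are induced along with FOS in many cells, fell. NR4A1 went from 14.1, 12.0 and 12.4 CPM to 3.22, 3.06 and 2.21 CPM (log2 fold change −2.18 ± 0.27), and NR4A3 from 96 counts in all to 14 (−2.93 ± 0.52). CCN2, a matricellular protein, fell with −1.16 ± 0.23. The calls for KLF2, NR4A1, NR4A3 and CCN2 held in each alternative that gave them a value. DUSP1, a MAP kinase phosphatase, had 0.73 ± 0.25 and MYC −0.59 ± 0.21, and neither passed (adjusted p = 0.0582 and 0.0652).

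Of 13 tested factors and coactivators that act at immediate-early promoters, 1 rose and 0 fell by edgeR (median 0.15). The counts were 2 and 0 at an unadjusted p under 0.05, and 2 and 0 by DESeq2. The gene that rose by edgeR was ELK4, an ETS partner of SRF, with 0.66 ± 0.22. That call was lost with both other scalings, with a replicate block, and on leaving out glucose 2, glucose 3, no-glucose 1 or no-glucose 2. ELK3, a related factor, had 0.60 ± 0.21 and CRTC3, a CREB coactivator, 0.58 ± 0.27, and neither passed. SRF, which binds CArG boxes, had −0.24 ± 0.23 and CREB1 0.08 ± 0.19.

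Of 19 genes of the MAP kinase cascade, 1 rose and 2 fell (median −0.13). MAP2K6, a kinase that activates p38, fell from 19.8, 16.7 and 19.1 CPM to 5.78, 7.96 and 6.48 CPM (log2 fold change −1.45 ± 0.23). HRAS fell with −0.90 ± 0.22. MAPK11, a p38 isoform, rose with 1.20 ± 0.39, but in none of the 6 fits with 1 library fewer (adjusted p between 0.0619 and 0.156). MAPK8, which encodes the JUN kinase JNK1, had −0.23 ± 0.26.

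Of 17 tested genes known as AP-1 targets, 1 rose, 1 fell and 15 did not pass (median 0.36; 7 of the 17 had every library without glucose above, against 21% of all tested genes). The gene that fell was CXCL8, a chemokine, which had 28.1, 24.7 and 22.1 CPM with glucose and 5.03, 7.65 and 7.44 CPM without it (log2 fold change −1.89 ± 0.24). On leaving out glucose 1, 4 rose and 2 fell, and on leaving out no-glucose 1, 3 rose. EREG, a growth factor of the EGF family, had −0.71 ± 0.26 and passed on leaving out glucose 1 (adjusted p = 0.00785), with DESeq2, with library totals as scaling and with no filter. PLAU and PLAUR, the urokinase and its receptor, had 0.52 ± 0.23 and 0.52 ± 0.20, and did not pass. MMP13 and IVL were at 0 counts in every library, and IL6, MMP1, MMP3, MMP9, MMP10 and MMP14 were too low to be tested.

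Of 11 factors that act on AU-rich transcripts or on the stability of FOS and JUN proteins, 1 rose and 4 fell (median −0.14). ELAVL1, which stabilizes AU-rich transcripts, fell with −0.76 ± 0.20. HNRNPD, an AU-rich element binding protein, and PARN, a deadenylase, fell with −0.88 ± 0.25 and −0.84 ± 0.27. FBXW7, a ubiquitin ligase subunit for JUN, rose with 0.78 ± 0.26. Leaving out no-glucose 1 lost ELAVL1 and PARN, and leaving out any of glucose 2, glucose 3, no-glucose 2 and no-glucose 3 lost HNRNPD and PARN; of the 6 fits with 1 library left out, FBXW7 passed only in the one that left out no-glucose 2. With a replicate block 1 fell and none rose. The median of this list was 0.16 on leaving out glucose 1.

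Heat-shock genes, which also respond to the handling of cells, rose in 4 of 11 cases and fell in 1 (median 0.32) in the libraries in which FOS, JUN and EGR1 were higher. HSPA6, a strictly inducible HSP70 gene, had 1 count in each library with glucose, and 159, 396 and 405 counts in no-glucose 1 to 3, a ratio of 273 (exact 95% interval 93.1 to 1325). HSPA1B rose with 1.53 ± 0.24 and DNAJB1, an HSP40 cochaperone, with 0.74 ± 0.20, the latter not on leaving out glucose 2, glucose 3 or no-glucose 3 or with a replicate block. HSPA1A rose with 1.13 ± 0.28, lost on leaving out glucose 2 or glucose 3; HSPA1A and HSPA1B are near-identical copies, so their split is uncertain. HSPE1, the mitochondrial cochaperone, fell with −0.86 ± 0.21. On leaving out glucose 3, 2 were higher, and on leaving out no-glucose 3 none fell (HSPE1, adjusted p = 0.0552). Among the libraries without glucose HSPA6 was lowest in no-glucose 1, at 15.1 CPM against 30.3 and 29.8. So were 9 of the 10 members, FOS and EGR1 included. JUN was the exception, being lowest in no-glucose 2, where HSPA6 was highest. The part of handling in the levels of the immediate-early genes was not tested.

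**Figure D5:**
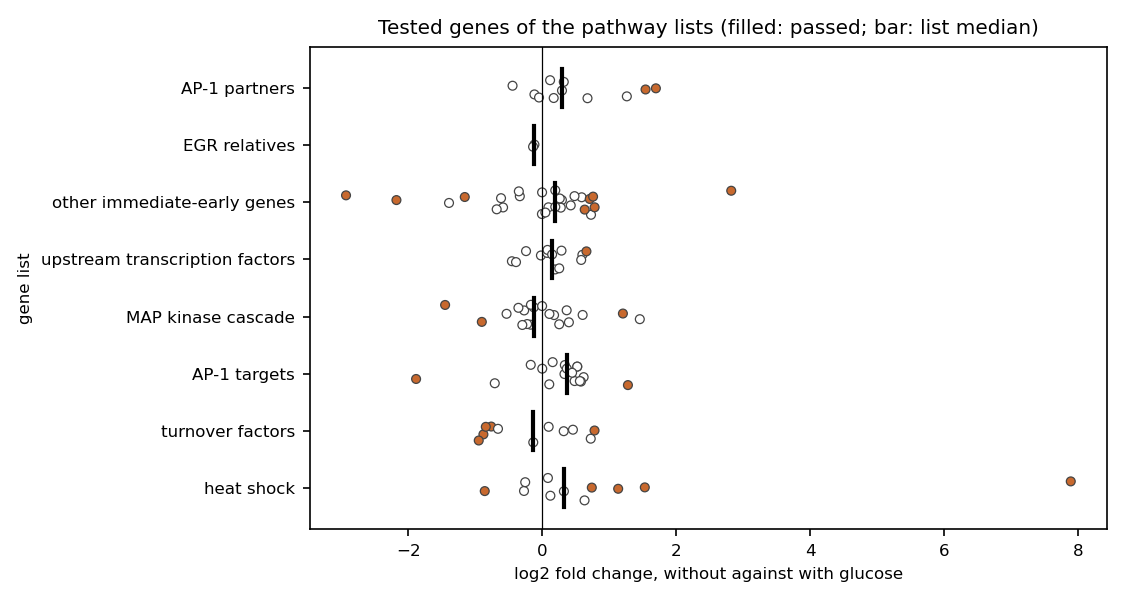
Log2 fold change without against with glucose (horizontal axis) of each tested gene of the 8 pathway lists (rows), filled where the edgeR test passed, with list medians as bars. The heat-shock gene far to the right is HSPA6, and the immediate-early genes farthest to the left are NR4A3 and NR4A1.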

How the data were processed

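Values are raw read counts per gene in 6 libraries, as deposited; the submitters' processing notes name STAR, HTSeq and hg19. Tool versions, annotation and the counter's strand setting were not given in the sources used here, though the protocol calls the libraries strand specific. Per the labels' protocols, oligo-dT primers carried a barcode, first-strand products were pooled by their Actb signal, and PCR ran for 12 cycles. No molecular identifiers are mentioned, so intervals cover counting error only. Genes were named by Entrez number through a RefSeq gene table (GRCh38.p14): 19178 of 19240 matched. The 5 HTSeq summary lines stayed out of library sizes and tests; genes took 43.1% to 44.7% of the reads.

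Groups came from the titles. The test was edgeR 4.0.16 (quasi-likelihood F, two-sided, TMM scaling, filterByExpr at a minimum count of 10, no covariate), with Benjamini-Hochberg adjustment over 11886 genes and a threshold of 0.05. Each SE is |log2 fold change| over the root of F. CPM uses TMM-scaled library sizes. On simulated counts (11783 genes), 97 tested genes were changed 2-fold and 97 were changed 4-fold. Of these, 48.5% and 94.8% were recovered, with 9 false calls. A far smaller part of the genes changed there than the 22.3% that passed here, so the recovery in the real comparison may differ. Alternatives were DESeq2 1.42.0, other scalings and filters, a replicate block, and leaving out each library. Libraries of a group differed beyond sampling noise (chi-square over degrees of freedom 22.1 to 57.3), so none were merged. The members and lists were chosen with earlier results of these data known. The text names all members, the 3 genes of each list with the smallest p, and the 3 most like JUN, FOSL1 and EGR1. Values of some list genes are not reported here, though the list counts include them. The summed family levels were added after the values were seen.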

Additional observations from a re-analysis of the deposited data

How the results depend on the processing

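Of 119 recomputed log2 fold changes of the 10 members, 101 kept their direction and side of the threshold, and 2 changed sign, both for IER2, which did not pass in any setting: 0.0461 and 0.01 on leaving out no-glucose 1 and no-glucose 3 (range −0.23 to 0.0461 over the 6 libraries). The difference in the share of JUNB was 0.0286 and 1.43 percentage points without the same libraries (range −8.63 to 1.43), against −2.39 with all. NAB1 had 0.15 on leaving out glucose 2 and 0.05 on leaving out no-glucose 1 (range −0.32 to 0.15), and NAB2 had 0.0282 on leaving out no-glucose 1 (range −0.29 to 0.0282). Over all genes, the number higher was 860 to 1292 and the number lower 781 to 1232 when 1 library was left out; of the members, 3 or 4 were higher and 0 lower. In the same fits the numbers higher were 1 to 3 for AP-1 partners and for other immediate-early genes, 0 to 1 for upstream factors and turnover factors, 0 for the MAP kinase cascade, 1 to 4 for AP-1 targets and 2 to 4 for heat shock, and the numbers lower 1 to 2 for AP-1 targets, 1 to 3 for turnover factors and 0 to 1 for heat shock. List medians then ran from 0.21 to 0.56 for AP-1 partners, −0.10 to 0.23 for upstream factors, −0.20 to −0.00623 for the MAP kinase cascade, −0.38 to 0.16 for turnover factors and 0.26 to 0.42 for heat shock. With DESeq2, 2 members were lower, 6 other immediate-early genes were lower, 2 upstream factors were higher, and 2 AP-1 targets were higher and 2 lower. With DESeq2 size factors in edgeR, 3 other immediate-early genes and 0 upstream or turnover factors were higher. With library totals as scaling, 1 other immediate-early gene and 0 upstream factors, MAP kinase genes or turnover factors were higher, and 2 AP-1 targets were lower. With no filter on low counts, 5 other immediate-early genes and 2 AP-1 targets were lower, and the medians were 0.65 for EGR relatives and 0.48 for AP-1 targets. With a replicate block, 0 members were lower, 1 AP-1 partner, 1 other immediate-early gene, 0 upstream factors, 0 MAP kinase genes and 0 turnover factors were higher, 1 turnover factor was lower, and the turnover median was −0.00722. The labels do not say that numbers mark a shared culture, and same-numbered libraries did not deviate together (correlations −0.32, −0.15 and 0.05). Between libraries of different number and group, these correlations ran from −0.26 (glucose 3 with no-glucose 2) to 0.31 (glucose 1 with no-glucose 2). Whether libraries of different number shared a batch was not tested. The causes of these shifts were not tested, the smaller number of libraries and the added block included. FOS, FOSB and EGR1 rest on 15 to 295 counts per group, which limits their precision.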
